A study of Homo sapiens with 24 samples.

Results

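The 10 genes described here are subunits of the transcription factor NF-kB and genes of its feedback loop, and they were taken by symbol from the 60675 genes of the count tables. They are the subunit genes NFKB1, NFKB2, RELA and RELB, the inhibitor genes NFKBIA and NFKBIE, and the target and feedback genes TNFAIP2, TNFAIP3, BIRC3 and ICAM1. All 10 symbols were found, each for a single Ensembl gene, and all 10 passed the filter on low counts in every comparison. No expression value was used to apply the rule, but the 10 genes were chosen with earlier results of these data known. The study asked how the histone demethylase KDM5C and the transcription factor YY1 together control gene expression, and total RNA was sequenced in 8 groups of 3 libraries, 24 in all. ACHN, a human renal cancer line labelled ccRCC, and HK2, a human kidney tubular epithelial line labelled Human Kidney, each carried a control hairpin (shNC), a hairpin against KDM5C (shKDM5C), a hairpin against YY1 (shYY1) or both knockdowns (labelled Dsh). The knockdown lines were made with lentiviral hairpins and drug selection, and the double-knockdown cells were YY1-depleted cells that received a second, GFP-marked virus against KDM5C. Double-knockdown cells thus went through 1 more infection than shYY1 cells, and a screen for green fluorescence, which cannot be told apart from the added knockdown. No second infection is described for shNC or shKDM5C cells either, so every other comparison of the double knockdown carries the same limit. The labels do not say that the 3 repeats of a group were separate cultures, so p-values measure the spread between these libraries, which may be technical.

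NF-kB dimers are held in the cytoplasm by IkB proteins, and a signal such as TNF activates IkB kinase, which marks the inhibitor for degradation and frees the dimer to enter the nucleus. In the canonical arm the dimer is mostly RELA with p50, the product of NFKB1, while in the non-canonical arm p100, the product of NFKB2, is processed to p52, which pairs with RELB. Several targets, among them NFKBIA, TNFAIP3 and BIRC3, encode proteins that act back on the pathway, and kidney tubular cells are known to switch on adhesion molecules and chemokines through it. RNA levels of these genes do not measure NF-kB activity itself.

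Library totals ranged from 15926561 to 24272298 counts. Levels are CPM, counts scaled to a common library size with edgeR's TMM factors, and a call is an adjusted p under 0.05 by edgeR's quasi-likelihood F test, adjusted over every gene tested by the method of Benjamini and Hochberg. With 3 libraries against 3, an exact permutation test of a single gene cannot give a p under 0.1. KDM5C was lower in shKDM5C and double-knockdown cells, with log2 fold changes of -0.73 and -0.80 in ACHN and -1.74 and -1.49 in HK2. YY1 was lower in shYY1 and double-knockdown cells, with -0.88 and -0.51 in ACHN and -1.70 and -1.49 in HK2, and all 8 of these changes were called. YY1 was also called higher in double-knockdown than in shYY1 cells, by 0.35 in ACHN and 0.22 in HK2. KDM5C was called higher in shYY1 than in shNC cells, by 0.34 in ACHN and 0.35 in HK2. Double-knockdown and shYY1 cells thus differed in YY1 as well as in KDM5C. HK2 shKDM5C replicate 1 stood apart from the replicates of its group: the SD of its log2 ratios to them was 0.747 and 0.735, against 0.161 between replicates 2 and 3, and its KDM5C level was 34.1 CPM against 67.5 and 67.1 CPM. For the NF-kB genes, the number of calls in each main test that uses this library is given with and without it. Values of single genes without it are given for some of them. The HK2 shKDM5C change of KDM5C (-1.74) and the HK2 interactions of KDM5C and YY1 are given only with it. That change rests in part on the low KDM5C level of replicate 1. The correlations and the fits with all 4 HK2 groups include this library and were not repeated without it. Among kidney epithelial markers, KRT8, PAX8 and CDH2 were at 158 CPM or more in every library, and of genes of the mature proximal tubule GGT1 lay between 69.5 and 344 CPM, CUBN reached at most 1.16 CPM, and LRP2, ANPEP and AQP1 stayed below 1 CPM. Several epithelial markers were called lower in the double knockdown of both lines. These were KRT8 (-1.005 in ACHN and -1.17 in HK2), KRT18 (-0.16 and -1.39), EPCAM (-1.38 and -1.01), CDH1 (-3.16 and -1.55) and PAX2 (-2.40 and -2.41). PAX8, CDH2 and GGT1 were called higher in both, by 0.13 to 0.81. In the ACHN single knockdowns, where most of the NF-kB genes also rose, markers moved both ways. In shKDM5C cells KRT8, CDH2 and GGT1 were called higher and KRT18, CDH1, PAX8 and PAX2 lower. In shYY1 cells KRT8, KRT18, PAX2, CDH2 and GGT1 were called higher and EPCAM, CDH1 and PAX8 lower. The 6 immune markers together reached at most 0.925 CPM in ACHN and 7.73 CPM in HK2, where CD14 held most of it. The 4 fibroblast markers summed to between 586 and 636 CPM in ACHN shNC cells and to between 135 and 152 CPM in the double knockdown, nearly all from COL1A1, and they summed to between 74.6 and 79.1 CPM in shKDM5C and between 190 and 197 CPM in shYY1 cells. In HK2 they summed to between 30.6 and 33.8 CPM in shNC cells and between 35.4 and 37.7 CPM in the double knockdown, where DCN rose from 0, 0.331 and 0.103 CPM to 6.67, 7.92 and 7.14 CPM. The part of these marker changes in the results for the NF-kB genes was not tested. In bulk RNA, fewer cells that express a gene and less RNA of it per cell cannot be told apart.

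RefSeq promoter windows, from 250 bases before to 50 bases after the start on GRCh38.p14, were found for 8 of the 10 genes; RELB and NFKBIE had none. The 10-base kappaB consensus, the DNA site that NF-kB dimers bind, was searched on both strands. For 5 of the 8 genes at least 1 window had a match. The share over all promoters was counted per window, not per gene, and was 5.91% of 35116 windows. Of the genes with a match, NFKB2, NFKBIA, TNFAIP3 and BIRC3 rose in the double knockdown of both lines and NFKB1 in that of ACHN. Of the genes without a match, TNFAIP2 and ICAM1 rose in both lines and RELA in ACHN. The part of these sites in the changes was not tested. NFKB2 had a window for each of 2 starts, and the matches 107 and 106 bases before its upstream start overlap and are 1 site read on both strands. In the sequences that follow, written along the gene's strand, capitals mark the match, and a match on the opposite strand appears as its reverse complement.
NFKB1 (chr4:102501300-102501329, plus strand): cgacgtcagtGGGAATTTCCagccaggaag
NFKB2 (chr10:102394461-102394490, plus strand): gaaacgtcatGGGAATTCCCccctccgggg
NFKB2 (chr10:102395674-102395703, plus strand): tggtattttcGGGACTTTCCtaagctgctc
NFKBIA (chr14:35404811-35404840, minus strand): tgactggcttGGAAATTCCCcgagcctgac
TNFAIP3 (chr6:137867182-137867211, plus strand): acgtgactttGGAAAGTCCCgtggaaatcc
BIRC3 (chr11:102317275-102317304, plus strand): tttgggtcatGGAAATCCCCgagtgggttt
TNFAIP3 had a further match 55 bases before its start, BIRC3 a further match 135 bases before, and NFKB2 further matches 78 bases before the upstream and 176 bases before the downstream start. RELA, TNFAIP2 and ICAM1 had no match within these windows, which says only that the letters are not there. The YY1 motif AANATGGCG, also searched on both strands, was in none of the 8 genes' windows and in 3.19% of all windows.

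In control cells the largest difference between the lines was in ICAM1, the adhesion molecule that binds leukocyte integrins. ICAM1 stood at 1.05, 1.4 and 0.974 CPM in the ACHN shNC libraries and at 99.5, 96.2 and 104 CPM in the HK2 shNC libraries. The ranges were far apart, with a log2 difference of ACHN against HK2 of -6.45 (SE 0.10, edgeR adjusted p = 5.53e-28). TNFAIP3, which encodes the deubiquitinase A20, BIRC3, which encodes the ubiquitin ligase cIAP2, and NFKBIE, an IkB gene, were lower in ACHN, with log2 differences of -1.55, -0.96 and -1.08. TNFAIP2, a TNF-induced gene of the exocyst-related family, was higher in ACHN by 0.71. The 4 subunit genes lay within 0.29 of each other between the lines on the log2 scale, and RELA was not called (-0.05, SE 0.05). The calls of NFKB1 (0.13) and RELB (0.29) were lost without ACHN shNC replicate 2, among other libraries, with adjusted p up to 0.118 and 0.0713. In all, 4 genes were higher and 5 lower in ACHN, and 76.6% of all genes tested were called in this comparison, so the count by itself is not a result about these genes. Cell line, culture history and everything else that differs between the lines cannot be told apart.

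**Figure D1:**
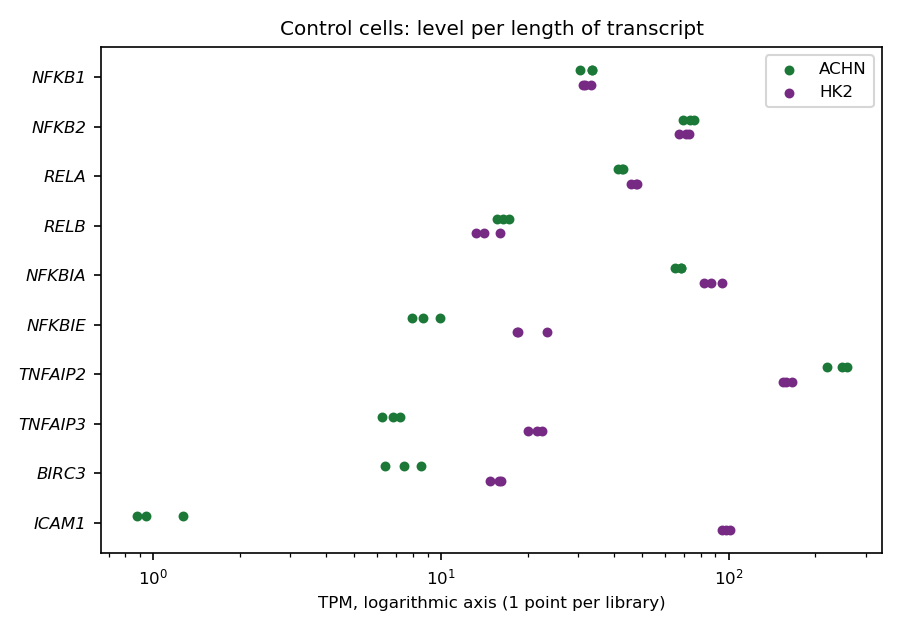
Level of each gene in the 3 shNC libraries of each cell line in TPM, a measure scaled per transcript length, on a logarithmic axis. ICAM1 lies near 1 TPM in ACHN and near 100 TPM in HK2, while the points of NFKB1 and NFKB2 overlap between the lines.

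Measured per length, TNFAIP2 was the most abundant of the 10 transcripts in both lines, at 242 TPM ± 19.1 (SD, n = 3) in ACHN and 160 TPM ± 5.44 in HK2. In ACHN it was followed by NFKB2 (72.9 TPM ± 3.23) and NFKBIA (67.3 TPM ± 1.74), then RELA, NFKB1 and RELB. NFKBIE, BIRC3 and TNFAIP3 lay between 6.76 and 8.83 TPM in ACHN, and the libraries of BIRC3 overlapped those of both NFKBIE and TNFAIP3. In HK2, ICAM1 was second at 97.9 TPM ± 3.44, followed by NFKBIA (87.9 TPM ± 6.66), whose libraries overlapped those of ICAM1, and then by NFKB2, RELA and NFKB1. BIRC3, TNFAIP3, NFKBIE and RELB were the lowest 4 in HK2, between 14.5 and 21.3 TPM, with overlapping libraries for TNFAIP3 and NFKBIE and for BIRC3 and RELB.

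The double knockdown raised all 10 genes in ACHN and 8 of the 10 in HK2, and lowered none. BIRC3, ICAM1 and RELB led in ACHN, and TNFAIP3, ICAM1 and RELB in HK2. Among all genes tested, 62.6% were called in ACHN and 49.8% in HK2, and 30.7% and 25.5% were called higher. Over the 10 genes the log2 fold change had a median of 1.00 in ACHN and 0.98 in HK2, beside -0.01 and -0.0026 over all genes tested. Changes of at least 1.5 on the log2 scale were called for 3 of the 10 genes in ACHN, where 8.42% of all genes passed that limit, and for 1 in HK2, where 4.3% did. All 6 of these comparisons with shNC share their control libraries within a cell line.

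**Figure D2:**
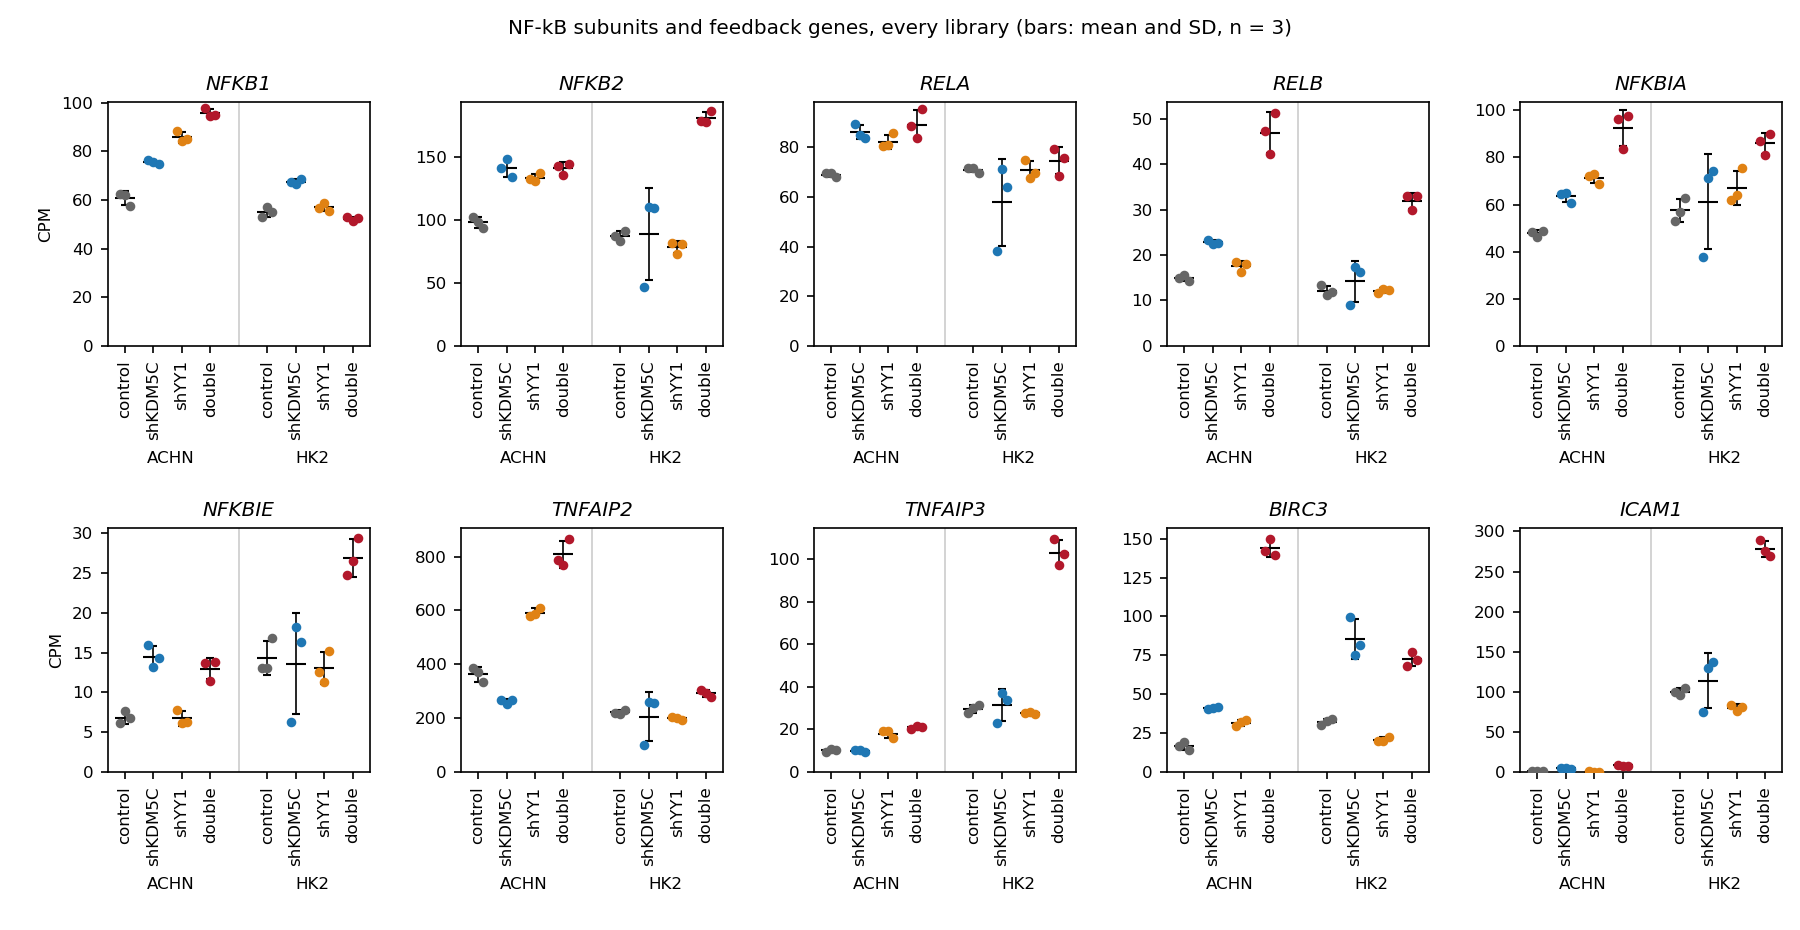
CPM of the 10 genes in every library, with 1 panel per gene, ACHN on the left and HK2 on the right of each panel, points for libraries and black bars for mean and SD (n = 3). In HK2 the double-knockdown points lie above every other HK2 library for all genes except NFKB1, RELA and BIRC3. The low point in several HK2 shKDM5C groups is replicate 1.

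RELB (chr19:45001430-45038198, plus strand) encodes the subunit that partners p52 in the non-canonical arm. In ACHN it read 14.9, 15.6 and 14.2 CPM in shNC cells, 23.3, 22.5 and 22.5 CPM in shKDM5C cells, 18.4, 16.2 and 17.97 CPM in shYY1 cells and 47.4, 42.1 and 51.2 CPM in the double knockdown. Each knockdown group lay above the control without overlap, and the double knockdown lay far above the other three, with a log2 fold change against shNC of 1.66 (SE 0.08, edgeR adjusted p = 4.12e-12). The rise in ACHN shYY1 cells was small (0.21, SE 0.08, edgeR adjusted p = 0.0356) and was lost without shNC replicate 1 or 3 or shYY1 replicate 1 or 3, with adjusted p up to 0.129. In HK2 it read 13.3, 11.1 and 11.9 CPM in shNC cells, 8.999, 17.3 and 16.3 CPM in shKDM5C cells, 11.6, 12.6 and 12.3 CPM in shYY1 cells and 33.0, 29.8 and 32.9 CPM in the double knockdown. The double knockdown stood alone at the top (1.39, SE 0.10, edgeR adjusted p = 6.16e-13), and in the fit with all libraries no step among the other HK2 groups was called.

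NFKB2 (chr10:102394110-102402529, plus strand), which encodes p100, had its clearest change in HK2. Its HK2 levels were 87.0, 83.03 and 90.8 CPM in shNC cells and 179, 177 and 186 CPM in the double knockdown, with 81.4, 72.7 and 81.0 CPM in shYY1 cells and 47.0, 109.8 and 109.6 CPM in shKDM5C cells. The double knockdown did not overlap any other group and exceeded the control by 1.05 on the log2 scale (SE 0.05, edgeR adjusted p = 2.18e-17). In ACHN the 3 knockdown groups were all higher than shNC, by 0.51 for shKDM5C, 0.42 for shYY1 and 0.53 for the double knockdown. Those 3 groups could not be ordered: neither single knockdown differed from the other or from the double knockdown at the adjusted threshold. Without shKDM5C replicate 3 the single knockdowns differed (-0.11, edgeR adjusted p = 0.0341), and without double-knockdown replicate 2 the double knockdown exceeded shYY1 (0.13, edgeR adjusted p = 0.0121).

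NFKB1 (chr4:102501329-102617302, plus strand), which encodes p105 and p50, moved in ACHN and not in HK2 double-knockdown cells. Its ACHN levels were 62.6, 62.3 and 57.4 CPM in shNC cells, 76.5, 75.7 and 74.9 CPM in shKDM5C cells, 88.4, 84.2 and 85.1 CPM in shYY1 cells and 97.9, 94.6 and 95.2 CPM in the double knockdown. The 4 groups rose in this order without overlap, and every step was called. In HK2 the double knockdown read 53.0, 51.4 and 52.6 CPM against 53.2, 57.1 and 55.1 CPM in shNC cells, with a log2 fold change of -0.08 (SE 0.06) that was not called. The 3 HK2 shKDM5C libraries read 67.4, 66.8 and 68.6 CPM, above every other HK2 library, yet the difference from shNC was not called (edgeR adjusted p = 0.245). It was called without replicate 1 (0.29, SE 0.06, edgeR adjusted p = 0.00188) and with all 4 HK2 groups in the fit (0.32, edgeR adjusted p = 0.0346).

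RELA (chr11:65653596-65663094, minus strand), the main transactivating subunit, had the smallest change of the 10 in the double knockdown of each line. ACHN shNC libraries lay between 67.9 and 69.8 CPM and all 9 ACHN knockdown libraries between 80.5 and 95.4 CPM, with log2 fold changes of 0.30 for shKDM5C, 0.23 for shYY1 and 0.38 for the double knockdown. In HK2 no comparison with shNC was called, and the double knockdown gave 0.07 (SE 0.06).

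The inhibitor gene NFKBIA (chr14:35401511-35404749, minus strand), which encodes IkBalpha, rose in the double knockdown of both lines. In ACHN it read 48.4, 46.1 and 48.8 CPM in shNC cells and 96.5, 83.7 and 97.6 CPM in the double knockdown, with shKDM5C (60.7 to 64.9 CPM) and shYY1 (68.9 to 73.1 CPM) in between. The 4 ACHN groups were separate, and the double knockdown exceeded shNC by 0.96 (SE 0.06, edgeR adjusted p = 1.43e-10). In HK2 the double knockdown read 86.8, 81.1 and 89.98 CPM against 53.1, 56.7 and 62.7 CPM in shNC cells (0.58, SE 0.06, edgeR adjusted p = 5.62e-09).

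NFKBIE (chr6:44258166-44265788, minus strand), which encodes IkBepsilon, was higher in both ACHN groups with KDM5C knockdown. It read 6.13, 7.60 and 6.71 CPM in shNC, 15.9, 13.2 and 14.4 CPM in shKDM5C, 7.79, 6.09 and 6.33 CPM in shYY1 and 13.7, 11.5 and 13.8 CPM in double-knockdown cells. shKDM5C (1.08, SE 0.11) and the double knockdown (0.94, SE 0.12) were both called higher and did not differ from each other, while shYY1 gave -0.04 (SE 0.13). In HK2 only the double knockdown was called (0.90, SE 0.11, edgeR adjusted p = 3.33e-08), from 13.1, 13.1 and 16.8 CPM to 24.8, 26.5 and 29.4 CPM.

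BIRC3 (chr11:102317450-102339403, plus strand) changed more than any other of the 10 genes in the ACHN double knockdown. It read 16.7, 19.1 and 14.4 CPM in ACHN shNC cells, 40.2, 40.9 and 41.7 CPM in shKDM5C cells, 29.7, 31.8 and 33.6 CPM in shYY1 cells and 142, 150 and 139 CPM in the double knockdown. No groups overlapped, and the log2 fold change of the double knockdown was 3.11 (SE 0.07, edgeR adjusted p = 9.96e-17). In HK2 it read 30.5, 32.9 and 33.8 CPM in shNC cells, 99.9, 74.9 and 81.3 CPM in shKDM5C cells, 19.7, 20.1 and 22.4 CPM in shYY1 cells and 68.4, 77.3 and 71.9 CPM in the double knockdown. In HK2 shYY1 cells BIRC3 fell by 0.65 on the log2 scale (SE 0.09, edgeR adjusted p = 9.31e-06), whereas in ACHN shYY1 cells it rose by 0.90. The HK2 double knockdown (1.16, SE 0.07) lay above shNC and overlapped shKDM5C cells.

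ICAM1 (chr19:10270835-10286615, plus strand) was the only gene of the 10 that fell in ACHN shYY1 cells, and it was called lower in HK2 shYY1 cells too. Its ACHN levels were 4.33, 4.44 and 4.14 CPM in shKDM5C cells, 0.534, 0.485 and 0.168 CPM in shYY1 cells and 8.59, 7.97 and 7.58 CPM in the double knockdown, beside about 1 CPM in shNC cells. These are low levels, resting on 18 to 26 counts per shNC library and 3 to 10 per shYY1 library. No ACHN groups overlapped, with log2 fold changes of 1.89 in shKDM5C (SE 0.22), -1.52 in shYY1 (SE 0.40, edgeR adjusted p = 0.00164) and 2.82 in double-knockdown cells (SE 0.19, edgeR adjusted p = 2.42e-10). In HK2 the libraries read 75.1, 130 and 137 CPM in shKDM5C, 83.6, 75.5 and 81.5 CPM in shYY1 and 289, 275 and 270 CPM in double-knockdown cells. The HK2 double knockdown was the highest group (1.47, SE 0.05), and shYY1 was below shNC (-0.32, SE 0.06), a call lost with all 4 HK2 groups in the fit (edgeR adjusted p = 0.28). The antisense genes ICAM4-AS1 and LIMASI, on the opposite strand, overlap 23.6% of the ICAM1 exon bases, and because strand was not used in counting, reads there cannot be told apart.

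TNFAIP3 (chr6:137867188-137883312, plus strand) had the largest change of the 10 genes in the HK2 double knockdown. It read 27.7, 29.8 and 31.6 CPM in HK2 shNC cells, 27.9, 28.3 and 27.3 CPM in shYY1 cells and 109.5, 97.3 and 103 CPM in the double knockdown, a log2 fold change of 1.79 against shNC (SE 0.07, edgeR adjusted p = 5.41e-20). The double knockdown stood far above the other HK2 groups, and shYY1 overlapped shNC. In ACHN it read 9.44, 10.8 and 10.3 CPM in shNC, 10.1, 10.3 and 9.52 CPM in shKDM5C, 19.3, 19.1 and 15.7 CPM in shYY1 and 20.2, 21.6 and 20.9 CPM in double-knockdown cells. There shKDM5C overlapped the control (-0.05, SE 0.10), and shYY1 (0.80) and the double knockdown (1.04) were both higher.

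TNFAIP2 (chr14:103123442-103137439, plus strand) moved in opposite directions in the single knockdowns of ACHN. It read 386, 372 and 333 CPM in ACHN shNC cells, 267, 251 and 267 CPM in shKDM5C cells, 578, 585 and 610 CPM in shYY1 cells and 788, 769 and 866 CPM in the double knockdown. No groups overlapped: it fell by 0.49 on the log2 scale in shKDM5C cells and rose by 0.68 in shYY1 and by 1.16 in double-knockdown cells. In HK2 the double knockdown was higher by 0.40 (SE 0.05), from 218, 214 and 231 CPM to 306, 292 and 278 CPM, and shYY1 was lower by a log2 fold change of -0.16 (SE 0.05, edgeR adjusted p = 0.0189), a call lost without HK2 shNC replicate 3 or shYY1 replicate 3. With all 4 HK2 groups in the fit neither was called (edgeR adjusted p = 0.257 and 0.798).

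**Figure D3:**
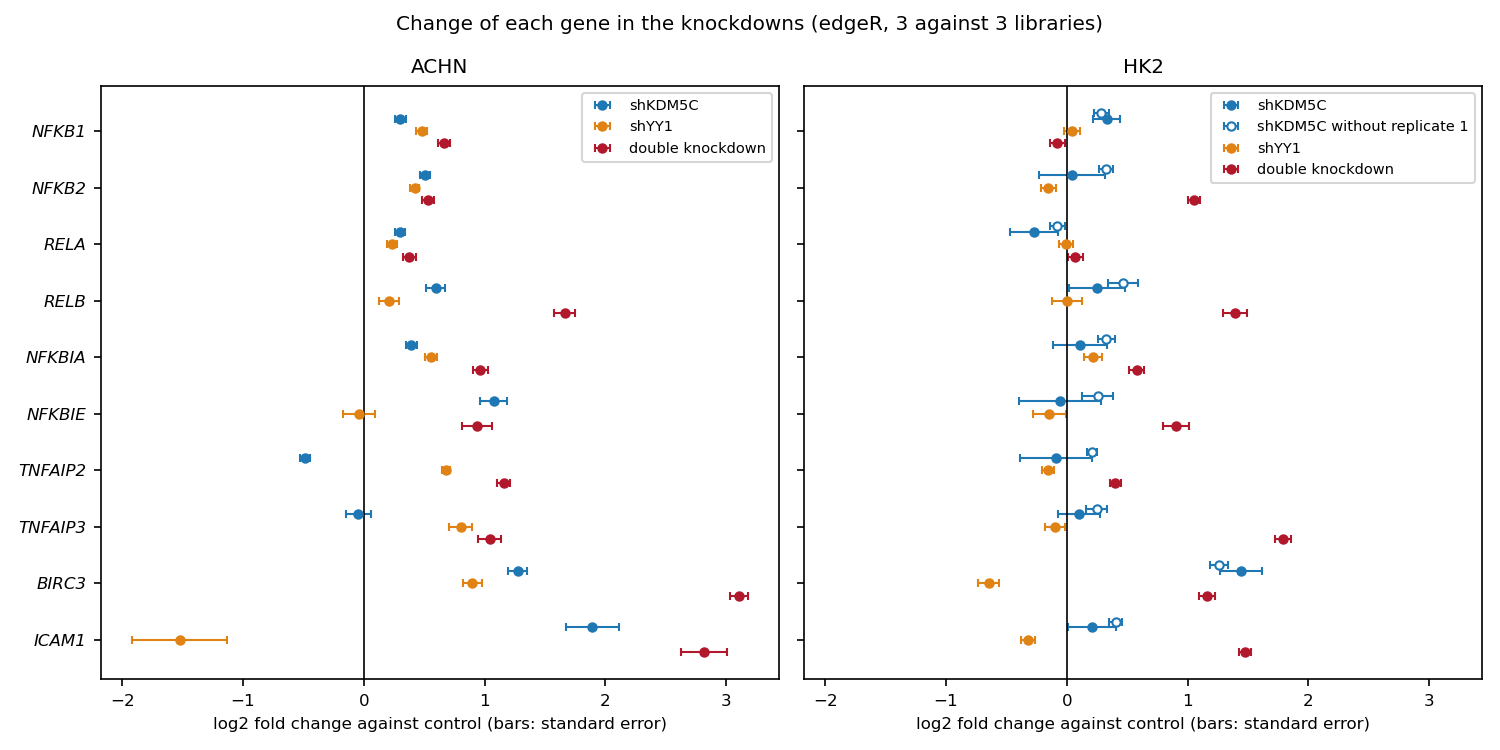
Log2 fold change of each gene against shNC in the 3 knockdowns of ACHN and HK2, with standard errors; open points are HK2 shKDM5C cells without replicate 1. BIRC3 and ICAM1 lie furthest right in the ACHN double knockdown, at 3.11 and 2.82, and TNFAIP3 in the HK2 double knockdown, at 1.79.

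Counted by comparison, ACHN shKDM5C cells had 8 of the 10 genes higher and TNFAIP2 lower, where 56.6% of all genes tested were called. ACHN shYY1 cells had 8 higher and ICAM1 lower, where 48.7% were called. HK2 shYY1 cells had NFKBIA higher (0.22) and TNFAIP2, BIRC3 and ICAM1 lower, where 29.1% were called; the NFKBIA call was lost without shNC replicate 1 or 2 or shYY1 replicate 3, with adjusted p up to 0.276, and with total counts or all 4 groups in the fit. NFKB2 (-0.15) was not called there, and was called lower without shNC replicate 2 or shYY1 replicate 1 and under 3 other settings: total counts, the minimum of 10 counts and the replicate block. HK2 shKDM5C cells had BIRC3 alone higher (1.44, SE 0.17, edgeR adjusted p = 0.0162), where 1.32% were called and 0.668% called higher. This call was lost when any shNC library or shKDM5C replicate 3 was left out, with adjusted p up to 0.151. In that group replicate 1 was the lowest library for 8 genes: it read 38.2 CPM for RELA against 71.5 and 63.9 CPM, 37.9 CPM for NFKBIA against 71.2 and 74.4 CPM, and 102 CPM for TNFAIP2 against 261 and 254 CPM. NFKBIE read 6.33 against 18.2 and 16.3 CPM and TNFAIP3 22.9 against 37.3 and 33.6 CPM, and BIRC3 alone was highest there. Without shKDM5C replicate 1, 8 of the 10 genes were called higher in HK2 shKDM5C cells, beside 22.3% of all genes called: BIRC3 gave 1.26, RELB 0.46, ICAM1 0.40 and the other 5 between 0.21 and 0.33, while RELA (-0.08) and NFKBIE (0.25) were not called. TNFAIP2 (from -0.09 to 0.21) and NFKBIE (from -0.06 to 0.25) changed sign with that library left out.

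The 2 knockdowns were also compared with their combination directly. Against ACHN shKDM5C cells, the double knockdown was higher for 7 genes (62.5% of all genes called, 31.6% higher), with TNFAIP2 at 1.65, BIRC3 at 1.84 and RELB at 1.07, while NFKB2 (0.03), RELA (0.08) and NFKBIE (-0.13) were not called. Against ACHN shYY1 cells it was higher for 8 genes (64.6% called, 32% higher), led by ICAM1 at 4.32, a value that rests on the low shYY1 counts, and by BIRC3 at 2.19. The TNFAIP3 call there (0.22) was lost without shYY1 replicate 3 or double-knockdown replicate 2 or 3, with adjusted p up to 0.269. Between the single knockdowns of ACHN, NFKB1, NFKBIA, TNFAIP2 and TNFAIP3 were higher in shYY1 cells and RELB, NFKBIE, BIRC3 and ICAM1 higher in shKDM5C cells (60.7% called).

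In HK2 the double knockdown was higher than shYY1 for 8 genes (47.7% of all genes called, 24.8% higher), with TNFAIP3 at 1.89, BIRC3 at 1.81, ICAM1 at 1.80 and RELB at 1.39. With all 4 HK2 groups in the fit 6 genes were called, and NFKBIA (0.35, edgeR adjusted p = 0.188) and TNFAIP2 (0.55, edgeR adjusted p = 0.111) were not. Against HK2 shKDM5C cells it was higher for RELB, TNFAIP3 and ICAM1 (11.9% called, 6.26% higher), and the RELB and ICAM1 calls were lost when any double-knockdown library was left out, with adjusted p up to 0.107. Without shKDM5C replicate 1 it was higher for 7 genes and lower for NFKB1 (-0.37), beside 43.3% called, and BIRC3 was not called (-0.10, SE 0.07). Between the HK2 single knockdowns only BIRC3 was called (4.51% of all genes, 2.68% lower), at -2.08 in shYY1 against shKDM5C cells, and without that replicate 8 genes were lower in shYY1 cells, beside 35.3% of all genes.

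The interaction of the knockdowns is the log2 fold change of the double knockdown minus the sum of those of the single knockdowns. In ACHN it was positive for ICAM1 (2.42, SE 0.37), TNFAIP2 (0.94, SE 0.07), BIRC3 (0.91, SE 0.10) and RELB (0.84, SE 0.11), and negative for NFKB2 (-0.42, SE 0.06) and RELA (-0.18, SE 0.07), where 55.6% of all genes tested were called. The ICAM1 value subtracts its fall in shYY1 cells, which rests on 3 to 10 counts per shYY1 library. NFKBIA (-0.01, SE 0.08), NFKBIE (-0.12, SE 0.17), NFKB1 (-0.14, SE 0.06) and TNFAIP3 (0.26, SE 0.13) were not called. The interaction of the targeted genes was called in ACHN, at 0.28 for YY1 and -0.42 for KDM5C, and not in HK2. The RELA call was lost without shNC replicate 3, shKDM5C replicate 1, shYY1 replicate 3 or double-knockdown replicate 2, with adjusted p up to 0.128. In HK2 it was positive for TNFAIP3 (1.79, SE 0.19), ICAM1 (1.58, SE 0.21), NFKB2 (1.16, SE 0.30) and RELB (1.13, SE 0.25), and negative for NFKB1 (-0.45, SE 0.12), where 9.61% were called. The NFKB1 and NFKB2 calls were lost when any library of the shNC, shYY1 or double-knockdown group was left out, with adjusted p up to 0.0926, and that of RELB without shNC replicate 1. Without shKDM5C replicate 1, 7 genes were positive and NFKB1 negative (-0.40), beside 28.7% of all genes, with TNFAIP3 at 1.65, ICAM1 at 1.4, RELB at 0.94 and NFKB2 at 0.89.

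**Figure D4:**
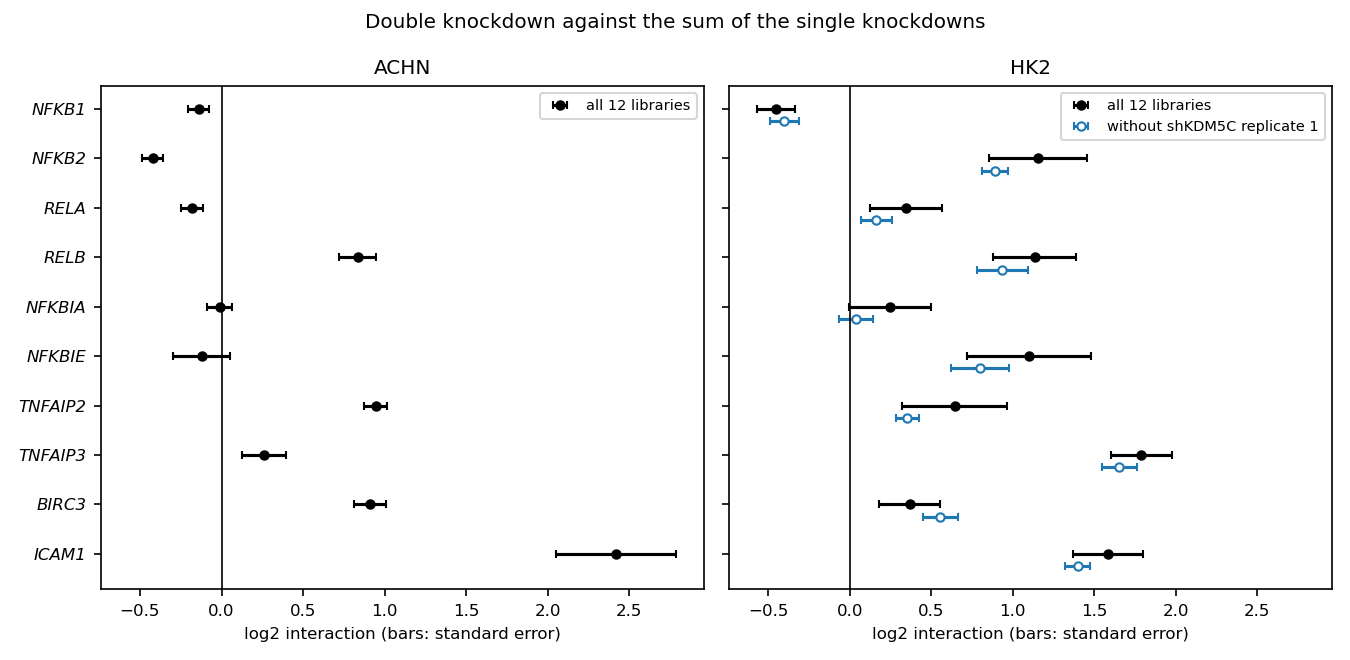
Interaction of the 2 knockdowns for each gene on the log2 scale with standard errors, from all 12 libraries of a line (black) and in HK2 without shKDM5C replicate 1 (open). NFKB2 lies left of 0 in ACHN, at -0.42, and right of 0 in HK2, at 1.16.

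The effect of each knockdown was also compared between the lines, as the log2 fold change in ACHN minus that in HK2. For the double knockdown 6 genes changed more upward in ACHN and NFKB2 and TNFAIP3 more upward in HK2, where 46% of all genes tested were called, and for shYY1 7 genes were more upward in ACHN and ICAM1 less so, where 33.1% were called. ICAM1, among the 6 of the double knockdown, started from a mean of 1.14 CPM in ACHN and 100 CPM in HK2 shNC cells. For shKDM5C only ICAM1 was called (11.9% of all genes), and without HK2 shKDM5C replicate 1 there were 4 genes more upward in ACHN, ICAM1, NFKBIE, RELA and NFKB2, and TNFAIP2 less so, beside 33.9% of all genes. RELB (0.29, SE 0.13) and NFKBIE (0.06, SE 0.17) were not called for the double knockdown.

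Other genes of the pathway were taken from 7 lists of 73 genes. In the ACHN double knockdown, 42 were higher and 4 lower of the 63 tested, and in HK2 33 were higher and 7 lower of 62. Over all genes tested, 62.6% were called and 30.7% higher in ACHN, and 49.8% were called and 25.5% higher in HK2. In ACHN the other feedback genes (5 of 9) and the non-canonical arm (3 of 6) had called shares near or below the all-gene share. So had the other subunit and IkB genes (3 of 5) and the ligands (1 of 3). In these lists, apart from the other feedback genes, every ACHN call was higher. In HK2 the shares of the other subunit and IkB genes (1 of 5) and the receptors (3 of 7) were below the all-gene share. Their HK2 calls were all higher. Near that share were the ligands (2 of 4) and the canonical kinases and adaptors (5 higher and 3 lower of 16). Lists this small cannot set such shares apart from that of all genes. Among the 20 other target genes, the 16 tested in ACHN were all higher with a median log2 fold change of 1.49, and 11 of 15 were higher and 3 lower in HK2 with a median of 0.66. The filter bears on the ACHN count: VCAM1, at most 0.217 CPM in shNC cells, passed it only through the double-knockdown libraries. A gene that passes this way can only come out higher, so that count is partly fixed by the filter. Among the 16 canonical kinases and adaptors, 10 were higher and 2 lower in ACHN (median 0.26), and 5 were higher and 3 lower in HK2 (median 0.03). Among the 9 other feedback genes, 4 were higher and 1 lower in ACHN and 7 higher and 1 lower in HK2, with CYLD, TNIP1, ZC3H12A and N4BP1 higher in both. Of 6 genes of the non-canonical arm, 3 were higher in ACHN and 4 in HK2, and none was lower. Of 8 receptor genes, 5 were higher and TNFRSF1B lower in ACHN, and 3 of 7 tested were higher in HK2, TNFRSF1B among them. Of 5 other subunit and IkB genes, NFKBIB, NFKBIZ and BCL3 were higher in ACHN and NFKBIZ in HK2. Only 3 and 4 of the 9 ligand genes passed the filter in ACHN and HK2, with TNFSF12 higher in ACHN and IL1B and TNFSF15 in HK2.

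Among the genes of these 7 lists with at least 10 CPM and no overlap between libraries, the largest rises in the ACHN double knockdown were in an adhesion molecule and 2 chemokines. VCAM1 went from 0, 0.108 and 0.217 CPM in shNC cells to 31.8, 33.9 and 30.4 CPM, and its fold depends on the few control counts. CXCL1 rose from 28.8, 32.4 and 26.5 CPM to 208, 192 and 188 CPM (2.75, SE 0.07), and CXCL8 from between 4.01 and 5.39 CPM to between 26.4 and 31.9 CPM (2.62, SE 0.12). TRAF5 (-0.52), OTUD7B (-0.31) and CHUK (-0.17), an adaptor, a deubiquitinase and an IkB kinase gene, were lower. Among the same lists, the genes that rose the most in the HK2 double knockdown were IL1RAP, a subunit of the interleukin-1 receptor (1.72, SE 0.06), CSF1, a macrophage growth factor gene (1.61, SE 0.06), and IER3 (1.59, SE 0.06). MYD88 (-1.05, SE 0.10) and RIPK1 (-0.80, SE 0.08), adaptor and kinase of the receptor complexes, and GADD45B (-0.32, SE 0.10) were lower. In control cells, TLR3 (2.70) and IL1R1 (2.01) were higher in ACHN and CXCL8 (-4.20), IL1RAP (-2.77) and CSF1 (-1.40) lower. CXCL1 read 28.8, 32.4 and 26.5 CPM in ACHN against 0, 0.110 and 0.360 CPM in HK2 control cells.

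Likeness of pattern was measured as Pearson's r of log2(CPM + 1) over the 24 libraries after the mean of each line was taken out, among 10398 genes; libraries of a group share a knockdown, so r describes these libraries only. The genes outside the lists most like RELB were PHC2 (r = 0.974) and CSF2 (0.962), and those most like ICAM1 were CCN3 (0.974) and ENTPD7 (0.958). TNFAIP2 was most like CEBPD (0.981) and CMTM3 (0.952), TNFAIP3 like LAMB1 (0.947) and LAMB3 (0.944), and BIRC3 like INTS3 (0.955) and SLC30A1 (0.954). For NFKB2 these were HYOU1 (0.975) and GALNT2 (0.970), for NFKB1 TMEM64 (0.923) and PEX26 (0.902), and for RELA LMF2 (0.944) and CDC42EP1 (0.937). NFKBIA was most like ZBTB7B (0.962) and S100A11 (0.948), and NFKBIE like WBP2 (0.951) and SQSTM1 (0.929). Among the 10 genes themselves, RELB and ICAM1 were the most alike pair (r = 0.895), and NFKB1 and NFKB2 had r = 0.0338 over all 24 libraries, 0.847 within the 12 ACHN libraries and -0.508 within the 12 HK2 libraries.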

How the data were processed

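Total RNA of 2 human cell lines was sequenced in 24 libraries of 8 groups. Read pairs were aligned by the authors in HISAT2 (2.0.5 per the labels), who deposited raw counts per gene from featureCounts (2.0.1 per the file headers, 1.5.0-p3 per the submitters' processing notes). The tables list 60675 genes of GRCh38, Ensembl release 84. They were counted without strand, so reads where antisense genes overlap cannot be assigned by strand. Reads of close paralogs cannot be assigned with certainty. A symbol was assigned to 56558 identifiers, and the 4117 without one hold 0.243% of the counts. CPM (TMM factors over 24 libraries) and TPM (exon length of the tables) were computed from the counts. Pairs of groups were tested with edgeR 4.0.16 in R 4.3.3 (filterByExpr, quasi-likelihood F test, Benjamini-Hochberg), and interactions and differences between the lines with all libraries involved. Standard errors come from the F statistic.

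Groups follow the labels, and no library was left out of the main tests. The 10 genes, the lists of pathway and marker genes and the tests were chosen with earlier results of these data known. Other genes named are, for each double knockdown and for the control cells, up to 3 higher and 3 lower pathway genes with the largest called change, at least 10 CPM in the higher group and no overlap between libraries, and the 2 genes most like each of the 10. SOD2, a pathway gene, was not matched to an identifier, and 1 kidney marker is not reported here. Alternatives were DESeq2 1.42.0 as the tool, scaling by its size factors (RLE) or by library totals, testing genes unfiltered or only with 10 counts throughout 1 group, fitting all 4 groups of a line together, blocking on the replicate number, and leaving out each library in turn. The fits were tested on simulated counts with known changes. Same-numbered replicates did not deviate together (r from -0.0997 to 0.107 in ACHN and from -0.321 to 0.117 in HK2), so numbers were not used to pair libraries.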

Additional observations from a re-analysis of the deposited data

Results flagged for a closer look

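For 17 results, a test of the difference found that a knockdown changed a gene by different amounts in the 2 lines (edgeR's quasi-likelihood test on 12 libraries, adjusted p under 0.05); values are log2 fold changes in ACHN minus those in HK2.

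For the double knockdown, BIRC3 differed by 1.97 (3.11 in ACHN, 1.16 in HK2), ICAM1 by 1.36 (2.82 and 1.47), TNFAIP2 by 0.78 (1.16 and 0.40) and NFKB1 by 0.76 (0.67 and -0.08). The shNC level of ICAM1 was low in ACHN, with a mean of 1.14 CPM against 100 CPM in HK2. NFKBIA differed by 0.41 and RELA by 0.33. TNFAIP3 differed by -0.73 (1.04 and 1.79) and NFKB2 by -0.50 (0.53 and 1.05), both with the larger rise in HK2. RELB gained a call without ACHN double-knockdown replicate 2 (0.35) or HK2 shNC replicate 2 (0.34).

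For shYY1, BIRC3 differed by 1.56, since it rose in ACHN (0.90) and fell in HK2 (-0.65), TNFAIP3 by 0.91 and TNFAIP2 by 0.85. NFKB2 differed by 0.59, NFKB1 by 0.45, NFKBIA by 0.35 and RELA by 0.25. ICAM1 differed by -1.19 (-1.52 and -0.32), on 3 to 10 counts per ACHN shYY1 library, and lost its call without ACHN shYY1 replicate 3 (-0.84, edgeR adjusted p = 0.062).

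For shKDM5C, ICAM1 differed by 1.69 (1.89 and 0.21), and by 1.5 without HK2 shKDM5C replicate 1. YY1 and KDM5C themselves were lowered by different amounts in the lines, with differences in the double knockdown of 0.99 and 0.71, and their part in these results was not tested.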

How the results depend on the processing

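The cause of the changes listed here was not tested. With 1 library left out, the number of the 10 genes called ranged for HK2 shKDM5C against shNC from 0 to 8, for HK2 shYY1 against shNC from 2 to 5, for HK2 double knockdown against shKDM5C from 1 to 8, for HK2 shYY1 against shKDM5C from 1 to 8, for HK2 interaction of the knockdowns from 2 to 8, for the shKDM5C effect of ACHN against HK2 from 1 to 5; the number was within 1.5 times the reported one in the other comparisons. The highest counts come without HK2 shKDM5C replicate 1, except for HK2 shYY1 against shNC, where 5 genes were called without shYY1 replicate 1 and 2 without shYY1 replicate 3. The all-gene counts ranged in the same way from 0 to 3718 for HK2 shKDM5C against shNC, from 383 to 7197 for HK2 double knockdown against shKDM5C, from 58 to 5805 for HK2 shYY1 against shKDM5C, from 957 to 5065 for the HK2 interaction and from 1267 to 6289 for the shKDM5C effect between the lines. With all 4 groups in the fit, 2 genes were called for HK2 shKDM5C, 1 for HK2 shYY1, 6 for HK2 double knockdown against shKDM5C and 3 for HK2 shYY1 against shKDM5C, and the all-gene counts were 1340, 927, 4647 and 3745, with 3914 for the HK2 double knockdown and 3765 for it against shYY1. The call of TNFAIP2 in the HK2 double knockdown (0.39, adjusted p = 0.257) was lost in that fit, as were those of ICAM1, NFKBIA and TNFAIP2 in HK2 shYY1 cells and of NFKBIA and TNFAIP2 in the HK2 double knockdown against shYY1. DESeq2 called 6 and the fit with no filter 5 genes for HK2 double knockdown against shKDM5C, and each called 2 for the shKDM5C effect between the lines; over all genes DESeq2 called 807 for HK2 shKDM5C, 3124 for HK2 double knockdown against shKDM5C and 2076 for HK2 shYY1 against shKDM5C, and no filter 405 and 1571 for the first and the last. With the replicate block, 0 genes were called for HK2 shKDM5C (0 of all genes), BIRC3 gave adjusted p = 0.0945, and the all-gene counts were 797, 115 and 957 for HK2 double knockdown and shYY1 against shKDM5C and for the shKDM5C effect between the lines; for HK2 shYY1 against shKDM5C 29 of those were higher and 86 lower.

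Values that changed sign were all small and uncalled in the main tests. ACHN double knockdown against shKDM5C gave -0.010 for NFKB2 with no filter. HK2 shKDM5C gave -0.011 for NFKB2 with total counts and -0.031 with the replicate block, which also turned NFKBIE (0.018) and TNFAIP2 (0.034) in HK2 shYY1 against shKDM5C. RELB in HK2 shYY1 cells gave -0.000412 with DESeq2, -0.000406 with RLE, -0.036 with total counts, -0.0042 with no filter, -0.0083 with the minimum of 10 counts and -0.000230 with all 4 groups. The ACHN interaction of NFKBIA gave 0.084 with total counts, which moved the median of all genes to 0.11 from 0.01, and 0.0096 with the minimum of 10 counts. The shKDM5C effect on NFKB1 between the lines gave 0.021 with total counts and 0.024 with no filter. With 1 library left out, signs changed within these ranges. For ACHN shKDM5C against shNC, TNFAIP3 from -0.10 to 0.00038. For ACHN shYY1 against shNC, NFKBIE from -0.15 to 0.051. For ACHN double knockdown against shKDM5C, NFKB2 from -0.027 to 0.056. For HK2 shKDM5C against shNC, NFKB2 from -0.12 to 0.32, NFKBIA from -0.035 to 0.33, NFKBIE from -0.31 to 0.25, TNFAIP2 from -0.28 to 0.21 and TNFAIP3 from -0.026 to 0.25. For HK2 shYY1 against shNC, RELA from -0.051 to 0.013 and RELB from -0.062 to 0.074. For HK2 shYY1 against shKDM5C, NFKBIA from -0.12 to 0.26, NFKBIE from -0.41 to 0.17 and TNFAIP2 from -0.38 to 0.13. For the ACHN interaction, NFKBIA from -0.057 to 0.056. For the shKDM5C effect of ACHN against HK2, NFKB1 from -0.043 to 0.023, TNFAIP3 from -0.29 to 0.0038 and BIRC3 from -0.24 to 0.021. For the shYY1 effect, NFKBIE from -0.013 to 0.25. For the double-knockdown effect, NFKBIE from -0.080 to 0.13. Of the interactions, RELA in ACHN lost its call with total counts (-0.08) and NFKB1 in HK2 with total counts, no filter or the block.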
